A study of Mus musculus with 19 samples.

Results

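Genes that mark or drive the differentiation of B cells into plasma cells were followed in splenocytes of mice of the Four-Core Genotype (FCG) model. The genes Prdm1, Xbp1, Irf4, Jchain, Mzb1, Sdc1, Eaf2, Txndc5 and Ell2 were chosen by name, and all 9 were among the 27179 genes measured. All 9 also passed the filter on low values, which left 14186 genes for testing. RNA was sequenced from splenocytes of 19 mice on a C57BL/6J background, 1 week after intraperitoneal immunization with heat-killed Streptococcus pneumoniae (HKSP) of strain R36A. In FCG mice the testis-determining gene Sry is deleted from the Y chromosome and carried as a transgene on chromosome 3, so that gonads and sex chromosomes are inherited separately. XXF (n = 5) had ovaries and 2 X chromosomes, and XYF (n = 4) had ovaries, an X and the Y that lacks Sry. XXM (n = 5) had testes, the Sry transgene and 2 X chromosomes, and XYM (n = 5) had testes, the transgene, an X and the Y that lacks Sry. The sample titles of all XXM mice, and of no others, carry a further tag of unknown meaning. Age at immunization was not given in the sources used here. All 19 mice were immunized, so no value is a change with immunization.

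Plasma cells are the antibody-secreting end stage of the B cell lineage. Irf4 and Prdm1 (which encodes Blimp-1) switch off the B cell program and Xbp1 expands the secretory apparatus, while the elongation factor Ell2 favours the secreted form of the immunoglobulin heavy chain and Eaf2 binds ELL proteins. Jchain is a part of polymeric antibody, Mzb1 and Txndc5 help proteins fold in the endoplasmic reticulum, and Sdc1 encodes the surface proteoglycan CD138 by which plasma cells are recognised in spleen.

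The sex chromosome labels were met in each mouse. Xist, the RNA of the inactive X, lay between 23.9 and 44.9 RPKM (reads per kilobase of gene, scaled to the depth of the library) in the 10 XX mice and at no more than 0.0524 RPKM in the 9 XY mice. The Y-linked Ddx3y lay between 30.8 and 60.0 RPKM in XY mice and reached at most 0.0533 RPKM in XX mice. No female had a read of Sry, and the 10 males had 12 to 119. Libraries held between 11263753 (XYF F6) and 19962022 (XYM 13) reads. The group medians were 16703648 reads in XXF, 17579368 in XYF, 16156083 in XXM and 19061692 in XYM.

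The levels of the 9 genes spanned a wide range. Jchain, which links the monomers of IgM and IgA, was the most abundant with a mean of 957 ± 305 RPKM (SD, n = 19), rank 59 of the 14186 genes tested. Mzb1, a chaperone cofactor of the endoplasmic reticulum, followed with 202 ± 58.6 RPKM (SD, n = 19). Xbp1 (122 ± 21.2 RPKM) and the disulfide isomerase Txndc5 (121 ± 18 RPKM) could not be placed in order, since Xbp1 was the higher of the pair in 8 of 19 mice. Next came Irf4 with 29.8 ± 9.99 RPKM and Ell2 with 22.5 ± 3.53 RPKM, in that order in 15 of 19 mice. Eaf2 (8.14 ± 2.62 RPKM), Sdc1 (4.27 ± 1.12 RPKM) and Prdm1 (3.14 ± 0.798 RPKM) were the lowest. Eaf2 exceeded Sdc1 in 19 of 19 mice and Sdc1 exceeded Prdm1 in 17 of 19. Even the least covered value rested on 104 reads (Prdm1 in XXM 2), while Jchain had at least 15863 reads in each mouse.

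**Figure D1:**
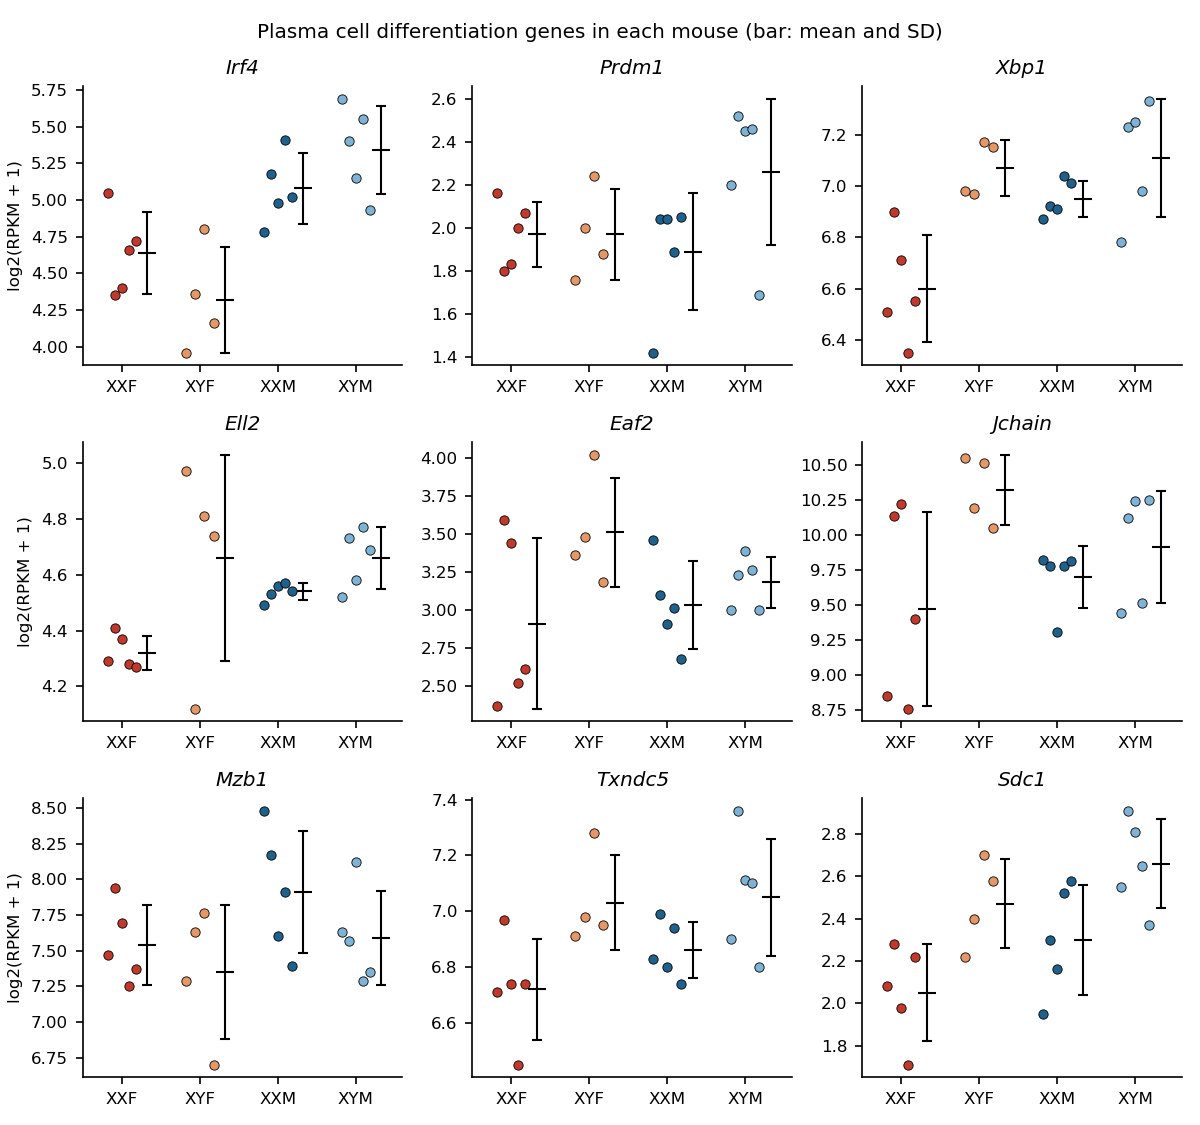
Log2(RPKM + 1) of each of the 9 genes in every mouse of XXF, XYF, XXM and XYM, with the group mean and SD as bars. Irf4 in the males (4.78 to 5.69) sits mostly above the females (3.96 to 5.05), and Xbp1 in XXF (6.35 to 6.90) lies below XYF (6.97 to 7.17).

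Irf4 on chromosome 13 was called between males and females. In XX minus XY among females and over both gonadal sexes, Xbp1 on chromosome 11 gave the smallest adjusted p of the 9 genes. Jchain on chromosome 5 had the largest difference of the 9 in both of these comparisons. The 250 bases before the RefSeq start sites of Irf4, Xbp1 and Jchain are therefore shown (build GRCm38, 5′ to 3′ on the strand of the gene). Of the Irf4 window 7 bases lie in an annotated untranslated exon, and no annotated exon lies in the Xbp1 and Jchain windows. Capitals mark matches, on either strand, to CCACG and CCAAT (the outer parts of the endoplasmic reticulum stress element), ACGT (the core of the unfolded protein response element) and GAAAG (the core of Blimp-1 sites). CCACG and ACGT share letters, and a CCACGT would count for both.
Irf4, chr13:30748983-30749232, plus strand: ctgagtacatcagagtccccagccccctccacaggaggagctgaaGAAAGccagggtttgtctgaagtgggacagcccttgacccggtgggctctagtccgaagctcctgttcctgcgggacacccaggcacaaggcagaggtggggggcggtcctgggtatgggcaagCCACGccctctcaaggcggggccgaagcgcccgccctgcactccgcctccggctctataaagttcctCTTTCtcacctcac
Xbp1, chr11:5520391-5520640, plus strand: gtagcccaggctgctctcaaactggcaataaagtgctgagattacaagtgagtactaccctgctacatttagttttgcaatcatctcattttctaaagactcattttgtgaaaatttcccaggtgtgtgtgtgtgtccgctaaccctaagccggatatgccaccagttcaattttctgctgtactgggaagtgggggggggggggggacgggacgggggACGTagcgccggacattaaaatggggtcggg
Jchain, chr5:88527898-88528147, minus strand: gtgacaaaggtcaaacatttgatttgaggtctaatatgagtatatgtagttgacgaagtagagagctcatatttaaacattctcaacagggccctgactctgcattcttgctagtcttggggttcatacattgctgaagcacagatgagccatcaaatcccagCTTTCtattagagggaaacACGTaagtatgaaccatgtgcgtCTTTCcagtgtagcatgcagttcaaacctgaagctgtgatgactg
The Irf4 window held CCACG 81 bases before the start and GAAAG at 205 bases and, on the other strand, at 14 bases. The Xbp1 window held ACGT at 31 bases, and the Jchain window held ACGT at 68 bases and GAAAG on the other strand at 87 and 45 bases. Among 8 of the 9 genes whose windows were read, CCACG occurred in 3, CCAAT in 4, ACGT in 5 and GAAAG in 4. The window of Prdm1 lies wholly, and that of Eaf2 mostly, within the RefSeq span of the gene, before an inner start. Beside Irf4, the windows of Sdc1, Eaf2 and Ell2 hold annotated exon bases, in Ell2 all 250 of an untranslated exon. Of 32851 mouse promoter windows of the same length, 28.3% held CCACG, 33.8% CCAAT, 26.9% ACGT and 51.5% GAAAG. A match describes the letters only and is not a site of binding.

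Males were compared with females over both sex chromosome complements to ask which of the genes differ between them. Each male also carries the Sry transgene, and the number that closes each sample title is lower in every male than in any female. Gonads, transgene and this order cannot be told apart. In log2(RPKM + 1), Irf4 stood at 5.05, 4.35, 4.40, 4.66 and 4.72 in the 5 XXF mice and at 3.96, 4.36, 4.80 and 4.16 in the 4 XYF mice. It stood at 4.78, 5.18, 4.98, 5.41 and 5.02 in XXM and at 5.69, 5.40, 5.15, 5.55 and 4.93 in XYM. All 10 males lay above the median female, 6 of them lay above every female, and XYM and XYF did not overlap. The share of all genes without such overlap was not counted. Irf4 rose in males by 0.73 on the log2(RPKM + 1) scale (SE 0.13, 95% interval 0.46 to 1.0, a fold of 1.66, limma adjusted p = 0.000786). Genes were called at an adjusted p under 0.1 and a fold over 1.5. Irf4 was called under each of 28 alternatives, with differences from 0.67 to 0.81 and adjusted p from 0.000266 to 0.00247. It was the only gene of the 9 that was called, where 7.32% of all genes tested were called (278 higher and 761 lower in males). With no fold threshold 2 of the 9 passed, Irf4 and Xbp1, beside 38.5% of all genes, of which 53.1% were higher in males against 26.8% with the threshold. Xbp1 differed by 0.19 (SE 0.08, limma adjusted p = 0.08), in a range of 0.16 to 0.31 over its alternatives. Its adjusted p ran from 0.00444 after quantile normalization to 0.147 without XYF F6, with 12 of 28 at 0.1 or more. The other 7 genes lay between -0.10 (Eaf2) and 0.31 (Mzb1), and the median of the 9 was 0.10 against 0.017 for all genes. After quantile normalization these medians were 0.19 and 0.037. Over the alternatives Eaf2 ran from -0.17 to -0.02 and Mzb1 from 0.20 to 0.43.

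Markers of other cell types differed between the same groups of mice. Of 7 B cell markers 5 rose in males (Cr2, Fcer2a, Cd22, Blk and Cd79a) and none fell, with a list median of 0.61. The count was 3 without XYF F6, XYF F9 or XYM 12, 4 after median ratio rescaling and 7 after quantile normalization. Of 8 T cell markers 7 fell in males, from -0.60 for Cd28 to -1.44 for Cd3g, with a list median of -1.12. Of all genes tested 7.32% were called in this comparison, and the median of all genes was 0.017. Summed over its 7 genes, the B cell list came to 2720, 2470, 2090, 2500 and 2420 RPKM in XXF, to 1330, 2180, 2250 and 1150 in XYF, to 3320, 3670, 3180, 3450 and 3000 in XXM and to 3310, 2690, 3320, 3100 and 1930 in XYM. Apart from XYM 13 and XYM 9, each male stood above each female in this sum. The T cell list summed to 935, 1350, 1210, 969 and 1200 RPKM in XXF and 923, 1190, 912 and 472 in XYF, against 430, 464, 419, 317 and 299 in XXM and 481, 458, 611, 537 and 287 in XYM. Apart from XYF F9, each female stood above each male. The most abundant genes were Cd79b (mean 865 RPKM) and Trac (mean 215 RPKM), and no marker of either list was at 0 in all mice. Fewer cells of a type and less RNA per cell cannot be told apart in these bulk samples, and the part of B and T cell content in the Irf4 difference was not tested.

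**Figure D2:**
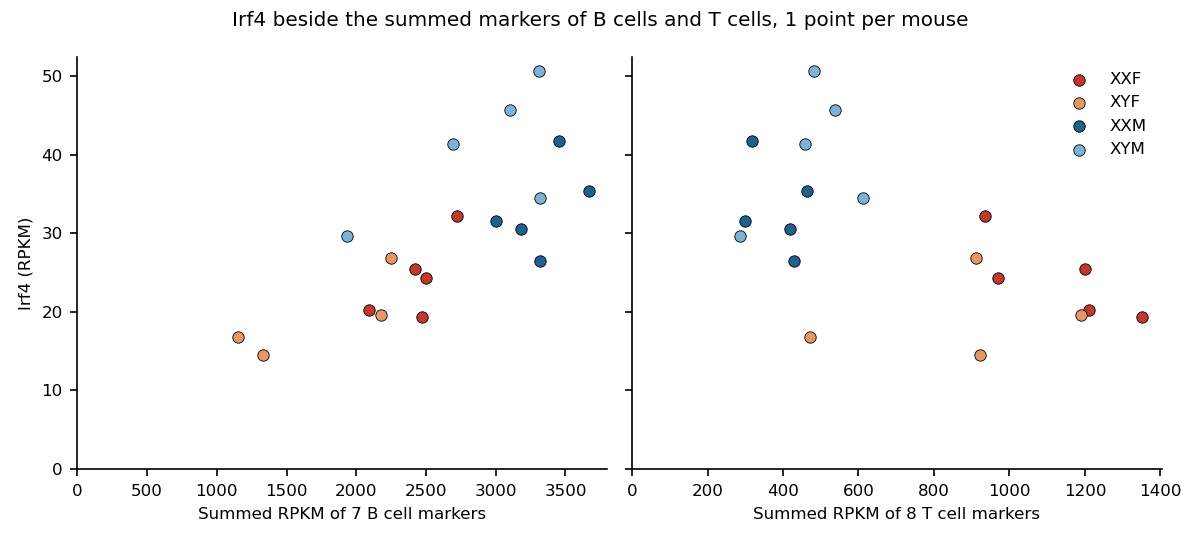
Irf4 (RPKM) in each mouse against the summed RPKM of 7 B cell markers (left) and of 8 T cell markers (right), coloured by group. The females, at 14.5 to 32.2 RPKM of Irf4, lie at B cell sums of 1150 to 2720, and the males, at 26.5 to 50.6 RPKM of Irf4, at 1930 to 3670.

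XX and XY mice were compared within females, within males and over both, to ask whether the genes differ with the sex chromosomes. The sex-specific and the pooled comparisons share mice. None of the 9 genes was called in females, where limma called 1.38% of all genes, in males (2.96% of all genes) or over both gonadal sexes (1.72% of all genes). At an unadjusted p under 0.05 there were 6, 2 and 6 of the 9, against 18.7%, 27.1% and 22.8% of all genes, and limma-voom on recovered reads gave the same counts, with 0 called. The differences were mostly below 0, in 6 of 9 genes in females, with 8 among males and 7 in the pooled comparison, and in 7, 8 and 8 after either rescaling, where Prdm1 in females and Irf4 over both crossed 0. Their medians were -0.34, -0.19 and -0.25, against 0.062, 0.006 and 0.027 for all genes. The number of genes called in females moved between 56 without XYF F9 and 850 without XYF F7, in males between 51 without XXM 2 and 1214 without XYM 15, and over both between 148 without XYF F9 and 518 without XYF F7.

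**Figure D3:**
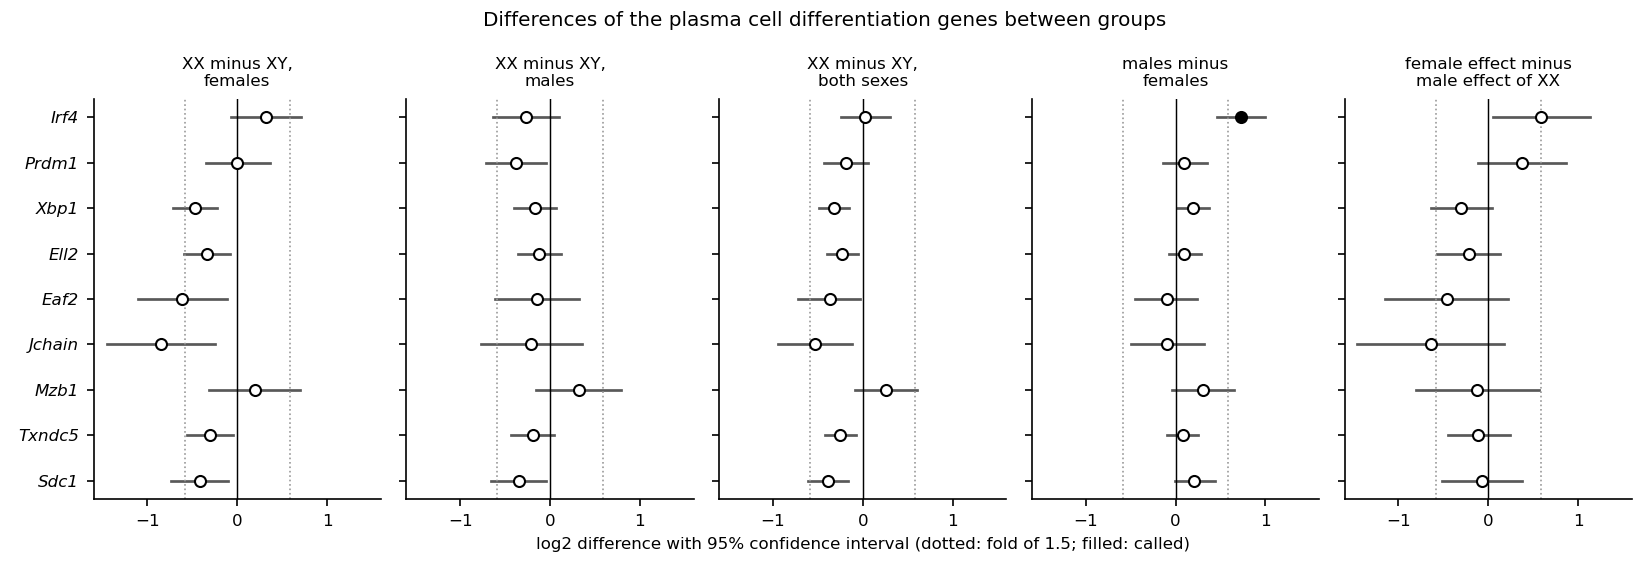
Log2 difference of each gene with its 95% confidence interval in the 5 comparisons, with dotted lines at a fold of 1.5 and a filled point where the gene was called. Irf4 in males minus females (0.73) is the filled point, and Jchain in XX minus XY females (-0.85) lies farthest below 0 among the differences between XX and XY.

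Xbp1, a transcription factor of the unfolded protein response that plasma cells need for secretion, gave the smallest adjusted p of the 9 in XX minus XY among females and over both gonadal sexes. In log2(RPKM + 1) it stood at 6.51, 6.90, 6.71, 6.35 and 6.55 in XXF and at 6.98, 6.97, 7.17 and 7.15 in XYF. The values were 6.87, 6.92, 6.91, 7.04 and 7.01 in XXM and 6.78, 7.23, 7.25, 6.98 and 7.33 in XYM. Each XXF mouse lay below each XYF mouse, each of the 5 XXM mice lay below the XYM median of 7.23, and XXM and XYM overlapped. How many of all genes separate XXF from XYF in this way was not counted. In females the difference was -0.47 (SE 0.12, 95% interval -0.72 to -0.22, limma adjusted p = 0.0691), a fold of 0.724 that stays under the fold threshold. With the fold threshold dropped it was the only gene of the 9 to pass in females, beside 2.43% of all genes. Pooled over the gonadal sexes Xbp1 differed by -0.32 (SE 0.08, limma adjusted p = 0.0457). Without the fold threshold 2 of the 9 passed there, Xbp1 and Sdc1, beside 6.93% of all genes. Over its alternatives the adjusted p of Xbp1 ran from 0.0109 to 0.125 over both, passing 0.1 without XYF F9 (0.101) and without XYF F9 and XYM 9 (0.125). In females it ran from 0.0365 to 0.23, with 0.131 without XXF F1, 0.161 without XXF F4, 0.169 without XXF F5, 0.132 without XYF F6, 0.23 without XYF F9, 0.147 without both XYF F9 and XYM 9, and 0.189 with the female groups fitted alone. In males it was -0.17 (SE 0.11, adjusted p = 0.329), from -0.30 with an adjusted p of 0.0927 after quantile normalization to -0.11 without XYM 9, with adjusted p up to 0.517 (without XXM 2). The difference between the female and male values was -0.30 (SE 0.16, adjusted p = 0.283), and -0.12 (adjusted p = 0.645) after quantile normalization. Values per gene do not separate spliced from unspliced Xbp1 mRNA.

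Sdc1 (chr12:8771396-8793716, GRCm38) lay lower in XX than in XY mice of each sex on average. It read 2.08, 2.28, 1.98, 1.71 and 2.22 in XXF and 2.22, 2.40, 2.70 and 2.58 in XYF, in log2(RPKM + 1). Male values were 1.95, 2.30, 2.16, 2.52 and 2.58 in XXM and 2.55, 2.91, 2.81, 2.65 and 2.37 in XYM. All 10 XX mice were below the XY median of 2.58, XXM 8 by less than the rounding, and the groups overlapped in each sex. The XX minus XY difference was -0.42 in females (SE 0.15, limma adjusted p = 0.178), -0.35 in males (SE 0.15, adjusted p = 0.139). Pooled, it was -0.39 (SE 0.11, adjusted p = 0.0567). The last was above 0.1 without XYF F9 (0.127) and without XYM 13 (0.112), within a range of 0.0232 to 0.127 over its alternatives.

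Jchain had the widest spread of the 9 genes within XXF (SD 0.69, n = 5). Its log2(RPKM + 1) was 8.85, 10.13, 10.22, 8.76 and 9.40 in XXF, against 10.55, 10.19, 10.51 and 10.05 in XYF. In males it was 9.82, 9.78, 9.31, 9.78 and 9.81 in XXM and 9.44, 10.12, 10.24, 9.51 and 10.25 in XYM. XXF F1, F4 and F5 lay below every XYF mouse, whereas XXF F2 and F3 fell inside the XYF range. The XXF values spanned 434 to 1190 RPKM and the XYF values 1060 to 1490 RPKM. The difference was -0.85 in females (SE 0.29, 95% interval -1.45 to -0.25, limma adjusted p = 0.151), -0.21 in males (SE 0.27, adjusted p = 0.623) and -0.53 in the pooled comparison (SE 0.20, adjusted p = 0.132). The male value was -0.11 without XXM 6, -0.33 without XYM 12 and -0.36 after quantile normalization. Without XXF F3 Jchain was called in females (-1.04, adjusted p = 0.0885) and in the pooled comparison (-0.62, adjusted p = 0.0972). Over the alternatives its adjusted p ran from 0.0885 to 0.323 in females and from 0.0614 to 0.253 over both. The test of the female against the male difference gave -0.64 (SE 0.39, adjusted p = 0.336).

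Immunoglobulin constant genes, which plasma cells transcribe at high rates, were compared between the same groups. Of the 12 on the list 4 fell in XXF against XYF, Ighg3 (-2.14), Ighg2b (-1.85), Ighg2c (-1.77) and Ighg1 (-1.21), and none rose. The count was 2 without XXF F4, without XXF F5 or without XYF F9, and 3 after quantile normalization. Of all genes tested, limma called 1.38% between XXF and XYF, 2.96% between XXM and XYM and 7.32% between males and females. The summed level of the 12 genes was 21000, 36200, 33700, 16500 and 23400 RPKM in XXF and 44400, 39800, 51000 and 46300 in XYF, so that these groups did not overlap. In males it was 34500, 35600, 44700, 38000 and 33200 RPKM in XXM and 31900, 47300, 46700, 47500 and 38500 in XYM, with overlap. Ighg2c fell in XXM against XYM (-2.17, limma adjusted p = 0.0121). In males 2 genes were called lower after quantile normalization and without XXF F4, without XYF F9 or without XYM 15, and 1 was called higher without XXM 8, without XYF F9 or without XYM 15. Between males and females 5 rose in males, led by Ighg3 (2.45) and Ighg2b (1.68), and Ighg2c fell (-1.08). The most abundant was Igkc with a mean of 22700 RPKM, and no gene of the list was at 0 in all mice. Other markers were also compared between XXF and XYF. Their summed levels overlapped in the B cell, T cell, erythroid and proliferation lists and not in the NK cell list. B cell markers were above 0 in 7 of 7 (median 0.57), with 2 called, and NK cell markers in 6 of 6 (median 1.07), with 3 called, while proliferation markers were below 0 in 6 of 6 (median -0.94). The share of all genes called there was 1.38%, as above, and the median of all genes was 0.062. T cell markers were above 0 in 8 of 8 (median 0.45) and erythroid markers below 0 in 6 of 6 (median -0.76). In the proliferation, T cell and erythroid lists limma and limma-voom called 0, with 3, 2 and 1 genes at an unadjusted p under 0.05 by each. Without XYF F9 and XYM 9 the medians were 0.39 for B cell, 0.80 for NK cell, -0.66 for proliferation, 0.22 for T cell and -0.45 for erythroid markers. XYF F6 (16300 RPKM) and XYF F9 (13300 RPKM) had the highest erythroid sums, against 438 to 5950 RPKM in the other 17 mice. The B cell count was 1 without XXF F1, XXF F4, XXF F5, XYF F6 or XYF F9, 4 without XYF F8 and 5 without XYF F7. Without XYF F7 the NK count was 5 and all 6 proliferation markers were called, and 1 of these was called without XYM 9. In XXM against XYM erythroid markers were above 0 in 6 of 6 (median 0.70), with 1 called. There 2 of 6 NK cell markers (median 0.58) and 2 of 5 plasmacytoid dendritic cell markers (median 0.58) were called higher. T cell markers lay below 0 in 8 of 8, with 3 called. These calls were all lost without XXM 2 or XYM 12. Of all genes 2.96% were called in XXM against XYM, and the median of all genes was 0.006. The erythroid count was 3 without XYM 9 and the dendritic count 4 without XYM 15. Without XYF F9 and XYM 9 the male medians were 1.15 (erythroid) and 0.35 (NK). The part of antibody-secreting cell content in the differences of Jchain and Xbp1 was not tested.

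Of the elongation factors, Ell2 was read at 4.29, 4.41, 4.37, 4.28 and 4.27 in XXF and at 4.97, 4.12, 4.81 and 4.74 in XYF, in log2(RPKM + 1). The XXM mice held a narrow band of 4.49 to 4.57 (SD 0.03, n = 5) that lay above each XXF mouse and inside the XYF range, and XYM ran from 4.52 to 4.77. XXM was not tested against XXF, and the share of all genes that separate in this way was not counted. Males minus females gave 0.10 for Ell2 (SE 0.08, limma adjusted p = 0.356). XYF F7 was the lowest of all 19 mice and XYF F6 the highest. The XX minus XY difference of Ell2 in females was -0.34 (SE 0.12, limma adjusted p = 0.171), and without XYF F7 it was -0.52 with an adjusted p of 0.00343, under the fold threshold still. Over the alternatives this adjusted p ran from 0.00343 to 0.472. All 10 XX mice lay below the XY median of 4.73. The difference was -0.12 in males (SE 0.11, limma adjusted p = 0.499) and -0.23 pooled (SE 0.08, adjusted p = 0.13). The pooled adjusted p ran from 0.00241 without XYF F7 to 0.312 without XYF F9 and XYM 9. Eaf2 ran from 2.37 to 3.59 in XXF, 3.18 to 4.02 in XYF, 2.68 to 3.46 in XXM and 3.0 to 3.39 in XYM. XXF F1, F4 and F5 were again the low mice, at 2.37, 2.52 and 2.61, below each XYF mouse. Eaf2 differed by -0.61 in females (SE 0.24, adjusted p = 0.197) and by -0.14 in males (SE 0.22, adjusted p = 0.686). The male value ran from -0.25 without XXM 2 to -0.06 without XXM 8.

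Txndc5 ran from 6.45 to 6.97 in XXF and from 6.91 to 7.28 in XYF, with 4 of 5 XXF mice below each XYF mouse. It ran from 6.74 to 6.99 in XXM and from 6.80 to 7.36 in XYM. Its XX minus XY difference was -0.30 in females (SE 0.12, limma adjusted p = 0.201) and -0.19 in males (SE 0.11, adjusted p = 0.262). The pooled value was -0.25 (SE 0.08, adjusted p = 0.101, in a range of 0.041 to 0.174 over the alternatives). Prdm1 encodes a repressor of the B cell program. In females its XXF values (1.80 to 2.16) lay inside the XYF range (1.76 to 2.24), and the difference was 0.00 (SE 0.17, 95% interval -0.35 to 0.36). In males Prdm1 stood at 1.42, 2.04, 2.04, 1.89 and 2.05 in XXM and at 2.20, 2.52, 2.45, 2.46 and 1.69 in XYM. Apart from XYM 9, each XYM mouse lay above each XXM mouse, and the difference was -0.38 (SE 0.16, limma adjusted p = 0.147). With XYF F9 and XYM 9 left out it was -0.52 with an adjusted p of 0.0538, in a range of 0.0538 to 0.371 over the alternatives, and it was not called.

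Mzb1 was the only gene of the 9 with a positive XX minus XY difference in males. It ran from 7.25 to 7.94 in XXF, 6.70 to 7.76 in XYF, 7.39 to 8.48 in XXM and 7.29 to 8.12 in XYM, with overlap in each pair. The differences were 0.20 in females (SE 0.24, limma adjusted p = 0.664) and 0.32 in males (SE 0.23, adjusted p = 0.357). The female value became -0.02 without XYF F9, the lowest mouse at 6.70, and the male value 0.18 without XXM 2, the highest at 8.48. Exons of Mzb1 overlap exons of Spata24 on the same strand, which read 3.04 to 11.1 RPKM, so a share of its reads is uncertain. Txndc5 overlaps Bmp6 (at most 0.412 RPKM) and Gm31834 on the other strand. Ell2 overlaps a small RNA gene on the same strand and 1700037F03Rik on the other strand.

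Whether the XX minus XY difference itself differed between females and males was tested for each gene. None of the 9 was called, where limma called 0.0846% of all genes (12 genes). At an unadjusted p under 0.05 there was 1, Irf4, against 21.0% of all genes, and limma-voom on recovered reads gave 0 called and 1 as well. The XX minus XY difference of Irf4 was 0.32 in females (SE 0.19, 95% interval -0.07 to 0.71, limma adjusted p = 0.358) and -0.27 in males (SE 0.18, 95% interval -0.64 to 0.10, adjusted p = 0.32). The test of these against each other gave 0.59 (SE 0.26, adjusted p = 0.205). The female value was 0.20 without XYF F6 and 0.48 without XYF F8, and the male value -0.18 without XYM 12 and -0.37 without XYM 9. Without XYM 9 Irf4 was called, at 0.69 with an adjusted p of 0.091, in a range of 0.091 to 0.39 over the alternatives. The number of genes called in this comparison went from 0 without XXF F1, XXF F2, XXF F5, XYF F6, XYM 12 or XYM 16 to 1695 without XYM 9. It was 1197 without XXF F3, 808 without XYM 15, 749 without XYF F8, 3 without XXF F4, 1 without XXM 6, and 7 without XXM 2, XYF F9 or XYM 13.

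XYF F9 and XYM 9 stood apart in myeloid cell markers. The 8 markers summed to 46000 RPKM in XYF F9 and to 46700 RPKM in XYM 9. The other XYF mice had 11900, 16300 and 7570 RPKM, the other XYM mice 3270, 8440, 4160 and 3570, the XXF mice 5260, 4240, 5460, 6020 and 5050, and the XXM mice 6450, 5930, 6460, 4970 and 4320. S100a9 was the most abundant (mean 4980 RPKM), no marker was at 0 in all mice, and each XXF mouse lay below each XYF mouse. Ly6c2 alone of the 8 fell in XX over both (-0.75, limma adjusted p = 0.0422), or 2 of the 8 without XYM 15 and none without XYF F9 and XYM 9 together. Of all genes tested, limma called 1.72% over both, 1.38% in females and 2.96% in males. In females all 8 lay below 0, with a median of -0.54 (-0.23 without those mice). Limma called 0 of them there, with 3 at an unadjusted p under 0.05 (0 and 3 by limma-voom). The number called as lower in XXF was 2 without those mice together, 2 without XYF F8 and 3 without XYM 9. In XXM against XYM 7 of the 8 lay below 0, with a median of -0.35 (-0.14 without XYF F9 and XYM 9). Limma called 1 as lower there and limma-voom 0, and the limma call was lost on leaving out any 1 of 14 mice. The part of myeloid cells in the differences of Xbp1, Sdc1 and Jchain was not tested. With XYF F9 and XYM 9 left out, a setting chosen after their values were seen, the XX minus XY difference over both was -0.28 for Xbp1, and no call on the 9 genes was gained or lost in any of the 5 comparisons.

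Over the 19 mice, the 9 genes formed 36 pairs, of which 29 had a Pearson r above 0 and 5 an r over 0.7, with a median of 0.375. These values describe mice that share library and group, and no p is given. Sdc1 and Txndc5 had the highest r (0.82, rho 0.74), with 0.69 after removing the group means and 0.84 without XYF F9 and XYM 9. Jchain and Eaf2 gave 0.80 (rho 0.73), 0.71 and 0.84. Xbp1 gave 0.76 with Jchain (rho 0.65), 0.77 with Sdc1 (rho 0.77) and 0.72 with Txndc5 (rho 0.64). Within groups the values of Xbp1 were 0.78 with Jchain, 0.50 with Sdc1 and 0.48 with Txndc5. Irf4 had r of 0.42 with Sdc1 (0.38 within groups), 0.26 with Txndc5 (0.28), 0.10 with Xbp1 (-0.39), -0.26 with Eaf2 (-0.20) and -0.37 with Jchain (-0.51), and its highest r was 0.57 with Prdm1 (0.67 within groups).

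**Figure D4:**
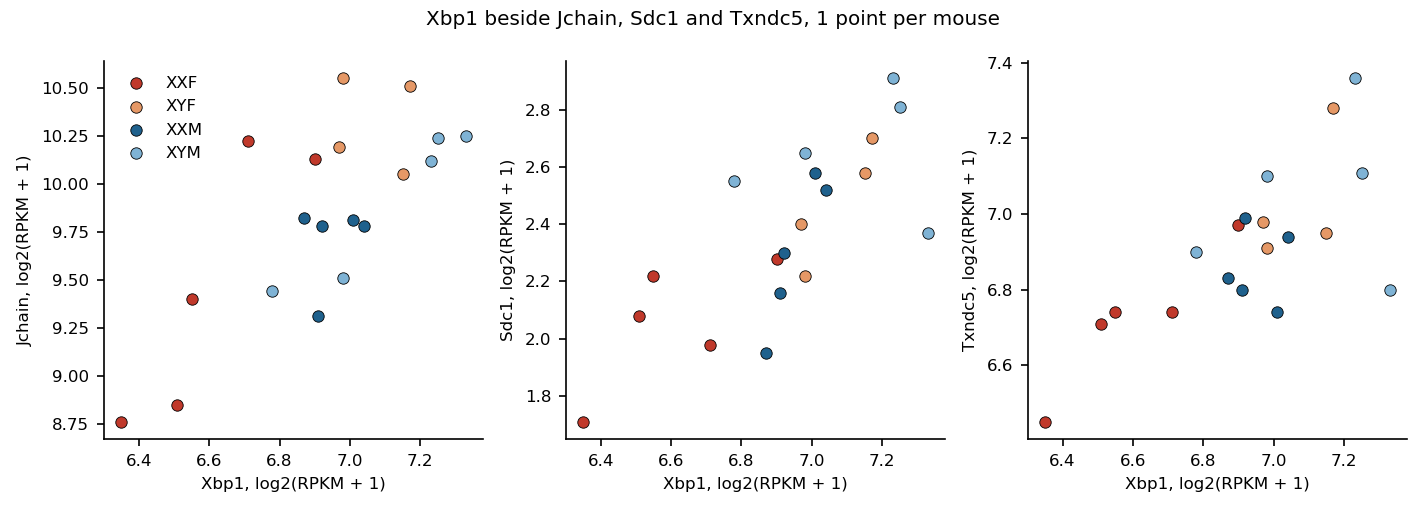
Log2(RPKM + 1) of Jchain, Sdc1 and Txndc5 against Xbp1, 1 point per mouse, coloured by group. XXF F4 has the lowest value of all 4 genes, at 6.35 for Xbp1, 8.76 for Jchain, 1.71 for Sdc1 and 6.45 for Txndc5.

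The 3 genes with the highest Pearson r to each of the 9 over the 19 mice were also listed. For Irf4 these were Tmed8, Setdb2 and Icosl, each with r = 0.97, and for Prdm1 LOC68395 (0.93), H2-Q6 (0.91) and Rnf31 (0.91). Xbp1 was followed by Bhlha15 (0.93), Edem2 (0.87) and Ighg2b (0.83), and Jchain by Tnfrsf17 (0.87), Creld2 (0.85) and Dusp12 (0.83). Sdc1 had Ergic1 (0.90), Ighv1-69 (0.85) and Man1b1 (0.84) nearest to it, and Txndc5 had Gpm6b (0.83), Sdc1 (0.82) and Derl3 (0.82). For Eaf2 they were Cacna1s (0.84), Creld2 (0.82) and Hmces (0.80), for Ell2 Pold3 (0.83), Nlgn2 (0.83) and Bora (0.81), and for Mzb1 Ankrd37 (0.93), Smim14 (0.91) and Jmjd7 (0.91). H2-Q6, Ighv1-69 and Ighg2b have close relatives in the genome, and how the authors' counting shared reads among them is not stated.

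Genes of the same pathway were described from lists. Of 18 genes of the secretory pathway and unfolded protein response, 1 fell in XXF against XYF, Derl3, which serves the removal of misfolded proteins (-0.78, SE 0.18, limma adjusted p = 0.0473). Of the 18, 16 lay below 0 in females and 7 in males, with medians of -0.21 and 0.06 (-0.01 in males after quantile normalization). Derl3 also fell over both (-0.62, SE 0.12, limma adjusted p = 0.0117). The female call was lost without XXF F4, XXF F5, XYF F6 or XYF F9 and without XYF F9 and XYM 9 together, and the call over both without XXF F4, XXF F5, XYF F8 or XYM 16. Of all genes tested, limma called 1.38% in females and 1.72% over both. Hsp90b1, the most abundant (mean 508 RPKM), differed by -0.30 in females. Between males and females limma called 0 of the 18, with 7 at an unadjusted p under 0.05, as did limma-voom, where 41.7% of all genes had such a p, and the median was 0.09.

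Of 10 receptors and coregulators of plasma cells, 1 fell in XXF against XYF, Tnfrsf17 (-0.92, SE 0.22, limma adjusted p = 0.06), which encodes the survival receptor BCMA. This call was lost without XXF F1, XXF F4, XXF F5, XYF F6 or XYF F9 and without XYF F9 and XYM 9 together. Creb3l2 fell in XXM against XYM (-0.79, SE 0.19, limma adjusted p = 0.0585), a call lost without XXM 2, XXM 5, XXM 6, XYM 12, XYM 13 or XYM 16, while 2 genes were called without XXF F1, XXM 7, XXM 8, XYF F9, XYM 15 or XYM 9. Tnfrsf13b, which encodes the receptor TACI, rose in males against females (0.70, SE 0.18, limma adjusted p = 0.00972). Of this list 2 genes were called higher in males after quantile normalization, and 2 without XYF F9 and XYM 9. Of all genes tested, limma called 1.38% in females, 2.96% in males and 7.32% between males and females. The 1 call of 10 between males and females is near the last of these shares. Among 10 B cell regulators, chosen as a list opposed to plasma cell fate, 5 rose in males and none fell. The 5 were Ebf1 (0.90), Spib (0.79), Bcl6 (0.75), Pax5 (0.66) and Ciita (0.63). Whether each opposes that fate here was not tested. The list median was 0.60 in that comparison, where Irf4 and 5 of 7 B cell markers (median 0.61) also rose. Between XX and XY females limma called 0 of the 10, with 3 at an unadjusted p under 0.05 (0 and 4 by limma-voom) and a median of 0.34, although 1 was called without XYF F7 or XYM 9 and 2 without XYF F8. Pax5, which maintains B cell identity, rose in XXM against XYM (0.90, SE 0.22, limma adjusted p = 0.0602), and the call was lost without XXM 2, XXM 5, XXM 6, XYM 12, XYM 13 or XYM 16. Of the 10 regulators 6 lay below 0 in males (median -0.09), and 2 were called lower in XXM without XYM 9, also with XYF F9 left out too.

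**Figure D5:**
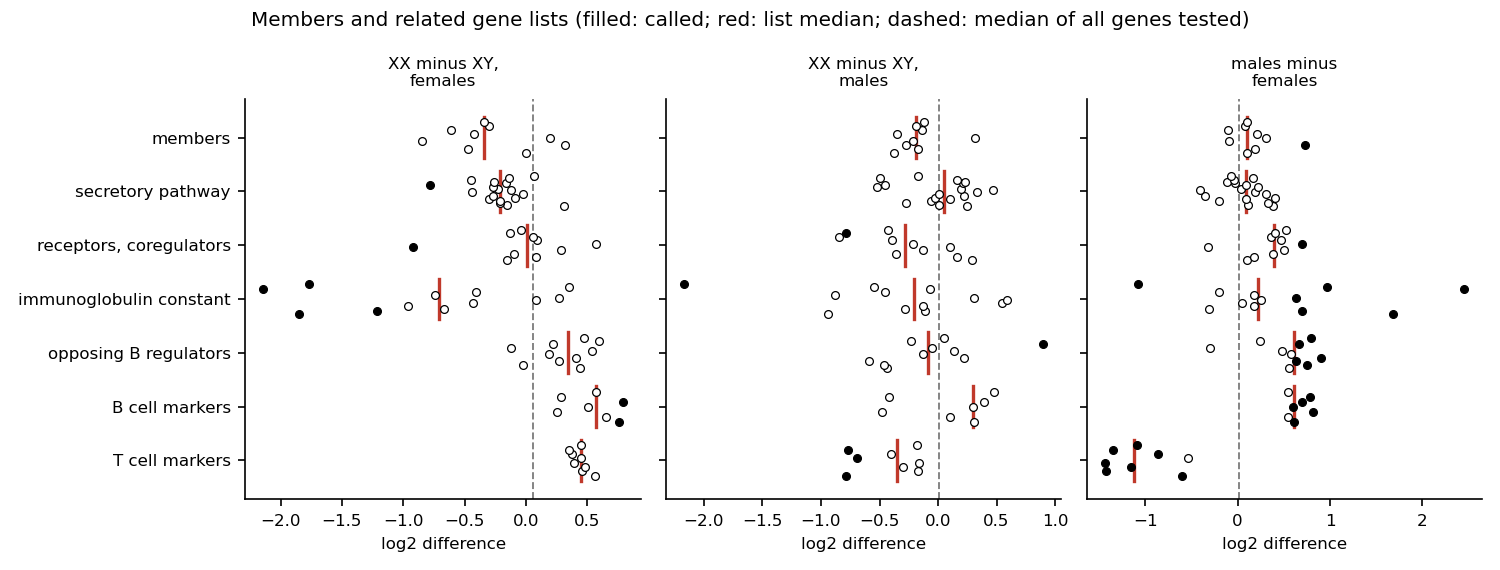
Log2 differences of the 9 genes and of the genes of 6 related lists in 3 comparisons, with called genes filled, the list medians in red and the median of all genes dashed. In females XX minus XY the medians were -0.34 for the 9 genes and -0.71 for immunoglobulin constant genes (-0.41 after quantile normalization), against 0.57 for B cell markers.

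Markers of further cell types gave the setting of these values. Over both gonadal sexes limma called 1.72% of all genes between XX and XY. It called 7.32% between males and females and 2.96% between XX and XY males. NK cell markers rose in XX over both gonadal sexes in 3 of 6 genes, Gzma (1.57), Klrb1c (1.19) and Ncr1 (1.10), and the NK sum had a median of 673 RPKM in XXF, 315 in XYF, 454 in XXM and 279 in XYM. Erythroid markers fell in males in 6 of the 6 tested (median -1.51), and the other 2 of the 8 listed were not analysed here. Proliferation markers fell in males in 5 of 6 (median -0.85), a count of 3 without XXF F3, XXM 5, XXM 7, XYF F6, XYF F9, XYM 12, XYM 15 or XYM 16. Of 5 plasmacytoid dendritic cell markers 1 rose (Siglech, 1.24) and 1 fell (Ccr9, -0.60) in males, with 2 higher without XXM 2, XXM 5, XYF F7, XYF F8, XYM 16 or XYM 9 and none lower without XXM 2, XXM 5, XYF F7 or XYM 9. Of 5 regulatory T cell markers limma and limma-voom called 0 between males and females, with 1 at an unadjusted p under 0.05 by each, and 0 between XX and XY males, with 2 by each, where limma called 3 as lower without XYM 9. Pancreatic acinar markers summed to at most 3.63 RPKM in any mouse and epithelial markers to at most 8.60 RPKM, and limma called 0 of the 3 tested in either list between males and females. At an unadjusted p under 0.05 there were 0 and 2, and limma-voom called 0 and 1.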

How the data were processed

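The values are bulk RNA-seq of spleen cells from 19 mice. The authors deposited log2 values, log2(RPKM + 1) with 0.0001 added, scaled by library size and gene length only. Per the labels, they had aligned to mm10 with Subread and counted per gene with featureCounts, and the study's methods name EdgeR for testing, which was not run on these log2 values. Tool versions, the strand setting of the counting and its handling of multiply matching reads are not given in the sources at hand. The labels name a NEBNext Ultra library kit, the methods a KAPA stranded kit. Genes reaching 0.5 RPKM in 4 or more mice were tested on the log2 values with limma 3.58.1 in R 4.3.3 (trend, 1 mean per group, shared spread), with Benjamini-Hochberg adjustment over all 14186. Each adjusted p is from this fit or an alternative of it. Fold changes are on the log2(RPKM + 1) scale, which understates those of low genes. Whole reads were recovered from the steps of the values for the whole set of 21317 detected genes, within 0.05 reads, and served limma-voom and the depths. The steps were tested on simulated data. Other steps used Python 3.11.15 with matplotlib 3.10.9, scipy 1.17.1, pandas 2.3.3 and numpy 2.4.6. Sequences are from RefSeq on GRCm38. The 9 genes, the gene lists and the cell type markers were chosen with earlier results of these data known, and 1 of the B cell markers is not reported here. Named are the 9, genes of the lists and markers, for each of the 9 the 3 tested genes with the highest Pearson r, genes whose exons overlap theirs, and Xist, Ddx3y and Sry. Alternatives changed the pseudocount, filter, scaling, model, call rule or groups, or left out each mouse.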

Additional observations from a re-analysis of the deposited data

Results flagged for a closer look

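In 3 of 48 groups of mouse values that were examined for a value far from the rest, 1 mouse stood apart, where about 1 in 20 (2.4 groups) would by chance. Prdm1 was 1.42 in XXM 2 on the log2(RPKM + 1) scale, below the other 4 XXM mice at 1.89 to 2.05. Jchain was 9.31 in XXM 6, below the other XXM mice at 9.78 to 9.82. The summed myeloid markers came to 46700 RPKM in XYM 9, above the other XYM mice at 3270 to 8440 RPKM. Among genes of the lists, the T cell costimulatory receptor Cd28 differed between females and males in its XX minus XY difference, by 1.35 (SE 0.24, limma adjusted p = 0.0546), with -0.79 (adjusted p = 0.0341) in males. The first call was lost without XXF F1, XXF F2, XXF F4, XXF F5, XXM 2, XXM 6, XYF F6, XYF F9, XYM 12, XYM 13 or XYM 16. Of the 8 T cell markers 3 were called in that test without XXF F3, XYF F8 or XYM 15 and 6 without XYM 9. In males 3 of the 8 were called lower in XX, none without XXM 2 or XYM 12 and 1 without XXM 5, XXM 6, XYM 13 or XYM 16. Limma called 2.96% of all genes in that comparison, and 0.0846% in the test of the female against the male difference.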

How the results depend on the processing

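The 45 differences of the 9 genes were recomputed 423 times under other settings, of which 408 kept their direction and call, 11 turned and 4 passed a call, and 855 times with a mouse left out, of which 834 kept both, 18 turned and 3 passed a call. Without the fold threshold 1 of the 9 genes was called in females (Xbp1), 2 over both (Xbp1 and Sdc1) and 2 between males and females (Xbp1 and Irf4), by construction. Some differences turned. Without XYF F9 and XYM 9, a setting chosen after the data were seen, they were Irf4 over both (-0.053), Mzb1 in females (-0.018), Prdm1 in females (-0.028) and Sdc1 in the sex by complement test (0.043). After median ratio rescaling they were Irf4 over both (-0.016) and Prdm1 in females (-0.055). After quantile normalization they were Irf4 over both (-0.021), Prdm1 in females (-0.015), Mzb1 (0.034) and Txndc5 (0.066) in the sex by complement test. Limma-voom turned Prdm1 in females (-0.006). The cause was not tested.

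With each mouse left out, the ranges were -0.035 to 0.106 for Irf4 over both, -0.181 to 0.001 for Jchain between males and females, -0.018 to 0.335 for Mzb1 and -0.069 to 0.091 for Prdm1 in females, and -0.335 to 0.021 for Mzb1 and -0.155 to 0.019 for Sdc1 in the sex by complement test. Between 0 and 1 of the 9 genes were called in females, over both and in the sex by complement test.

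The number of genes called among all tested moved with the settings given here, and the cause was not tested beyond stricter or looser rules and fewer mice or genes. In females (196) they were 127 without XYF F9 and XYM 9, 103 at an adjusted p under 0.05, 345 without the fold threshold, 88 with the groups fitted alone, and 56 to 850 with a mouse left out. In males (420) they were 876, 85, 1115, 121, 211 without a filter, and 51 to 1214. Over both (244) they were 395 by limma-voom, 983 without the fold threshold, 413 with a pseudocount of 0.1, and 148 to 518. Between males and females (1039) they were 1714, 5468 and 1700. In the sex by complement test (12) they were 782 without XYF F9 and XYM 9, 0 at 0.05, 4 by limma-voom, 6 without a filter, 6 with the pseudocount of 0.1, and 0 to 1695. Of genes called in females 48.5% were higher in XX, with 35.3% after median ratio rescaling, 37.5% with the groups fitted alone, 38.6% without XYF F9 and XYM 9 and 63.8% without the fold threshold. Neither rescaling moved the median of all genes by as much as 0.1. Groups held 4 or 5 mice, and the lowest read counts were 104 for Prdm1 and 106 for Sdc1.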
